A study of Mus musculus with 20 samples.

Results

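The lysosomal genes described here are 43 genes that code for the acid hydrolases of the lysosome, the small proteins that help them and the proteins of the lysosomal membrane. They were chosen by symbol from a written list, and all 43 were found among the 21326 genes listed for each library. The lysosome is the acidic compartment in which a cell breaks down what it has engulfed or recycled, and each hydrolase there opens a particular bond in a sugar chain, a lipid, a phosphate ester or a nucleic acid. Many of these genes are known from storage diseases, in which the loss of 1 enzyme lets its substrate pile up. Microglia, the resident macrophages of the brain, carry many lysosomes, and the gene for the lysosomal protein CD68 is in common use as a marker of phagocytic microglia.

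RNA was sequenced from microglia of 9-month-old mice on a C57BL/6 background in 20 libraries of 6 conditions. APP-KI mice carry the APP NL-G-F knockin, a humanized Aβ sequence with familial Alzheimer mutations at the endogenous App locus, and form amyloid plaques. C3aRKO mice lack the complement C3a receptor gene C3ar1 in every cell. Microglia were gated as CD45-intermediate and CD11b-positive cells. For 3 WT and 3 APP-KI libraries, marked C3aR+, they came from a C3ar1 fl/fl line with a Td-tomato reporter in the C3ar1 locus and were further selected as Td-tomato-positive. The other 14 libraries were not selected on C3aR and comprise 3 of WT, 3 of APP-KI, 3 of C3aRKO and 5 of APP-KI;C3aRKO microglia. Both sexes were used. The labels do not say that each library is a separate mouse, so the p-values measure the spread between these libraries.

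Library facts that bear on the results are as follows. Recovered reads ran from 13939559 to 30388941 in the C3aR+ libraries and from 42239056 to 76608464 in the others. Of the 14 other libraries, 4 had reads in fewer than 14000 genes, namely APP-KI replicate 4 with 13250, C3aRKO replicates 1 and 2 with 12702 and 13055, and APP-KI;C3aRKO replicate 1 with 12387. Another, APP-KI replicate 5, had reads in 21219 genes, against 14888 to 17450 in the remaining 15. Results from the 14 libraries are therefore given with and without these libraries. All of them have library numbers that begin with 24, and the only others of that series are WT replicate 4 and APP-KI;C3aRKO replicate 2. Leaving them out thus removes most of 1 library series, and the number of genes detected and the series cannot be fully told apart. Microglia markers were high throughout and none was at 0 in any library, with a summed scaled value over the 8 genes from 22068 to 24333 in C3aR+ WT, from 16006 to 19420 in C3aR+ APP-KI and from 8493 to 28355 in the other libraries. The lowest of these sums, 8493 and 10042, were those of APP-KI;C3aRKO replicate 1 and APP-KI replicate 4, which also had the highest sums over 12 dissociation genes, 6476 and 7524 against 2230.0 to 5424 in the other 18 libraries. C3ar1 stood at 276 to 340 in WT and 165 to 388 in APP-KI, and at 39.9 to 68.1 in C3aRKO and 61.9 to 80.4 in APP-KI;C3aRKO. In the C3aR+ libraries it stood at 37.6 to 81.2 in WT and 201 to 383 in APP-KI, so in WT the libraries selected by the reporter had the lower C3ar1 level.

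Many lysosomal genes share a promoter element, CACGTG, that the transcription factors TFEB, TFE3 and MITF bind, and the promoters of the members are shown here because most of the members rose in APP-KI C3aR+ microglia. In the RefSeq windows of GRCm38.p6, from 250 bases before to 50 bases after each start, 44 windows were found for 39 of the 43 genes, the others being Galns, Asah1, Npc1 and Laptm4b. CACGTG, which reads the same on both strands, was present in 9 of the 44 windows (20.5%) and in 7.15% of all 32851 windows of the same length. The longer TCACGTGA, which contains it, was in the windows of Cln3, Gla and Mcoln1 (6.82% of windows against 0.974%). Lamp1 had 4 copies of CACGTG, beginning 61, 45, 28 and 15 bases before its start. Each of the other stretches shown holds 1 of the copies in its window. They run 5′ to 3′ on the strand of the gene, with CACGTG in capitals.
Lamp1 (chr8:13159096-13159155, plus strand): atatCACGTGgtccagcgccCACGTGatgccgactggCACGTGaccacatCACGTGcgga
Glb1 (chr9:114401018-114401047, plus strand): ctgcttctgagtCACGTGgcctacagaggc
Naglu (chr11:101070009-101070038, plus strand): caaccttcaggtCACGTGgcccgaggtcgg
Gaa (chr11:119267811-119267840, plus strand): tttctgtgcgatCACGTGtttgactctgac
Gla (chrX:134601182-134601211, minus strand): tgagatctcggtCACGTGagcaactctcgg
Mcoln1 (chr8:3500436-3500465, plus strand): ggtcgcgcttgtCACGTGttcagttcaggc
Cln3 (chr7:126583368-126583397, minus strand): gcaaccctcaagCACGTGatggaaggctca
Sgsh (chr11:119355522-119355551, minus strand): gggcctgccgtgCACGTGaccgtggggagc
Arsa (chr15:89477423-89477452, minus strand): tcaactcagtgtCACGTGttgtctgctcct
A match describes the letters of these windows and is not evidence that a factor is bound there.

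The first question was which lysosomal genes differ between C3aR+ microglia of APP-KI and WT mice. Of the 43 genes, 42 passed the filter on low values and were tested, and Acp5, a phosphatase typical of osteoclasts, was near 0 in every library (highest scaled value 3.02) and was not. Of the 42, 27 were higher in APP-KI and 4 were lower at an adjusted p-value under 0.05 (limma, adjusted over all 12315 genes tested). Among all genes, 13% were higher and 9.7% were lower, 22.7% in either direction. The median log2 fold change was 0.92 over the 42 genes and -0.17 over all genes tested. Under median ratio scaling the median of all genes moved to -0.03, and 28 members were higher and 2 lower. Values are scaled read counts in which the median library sums to 1000000, and fold changes are on the scale of log2(value + 1), which understates the change of low genes.

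**Figure D1:**
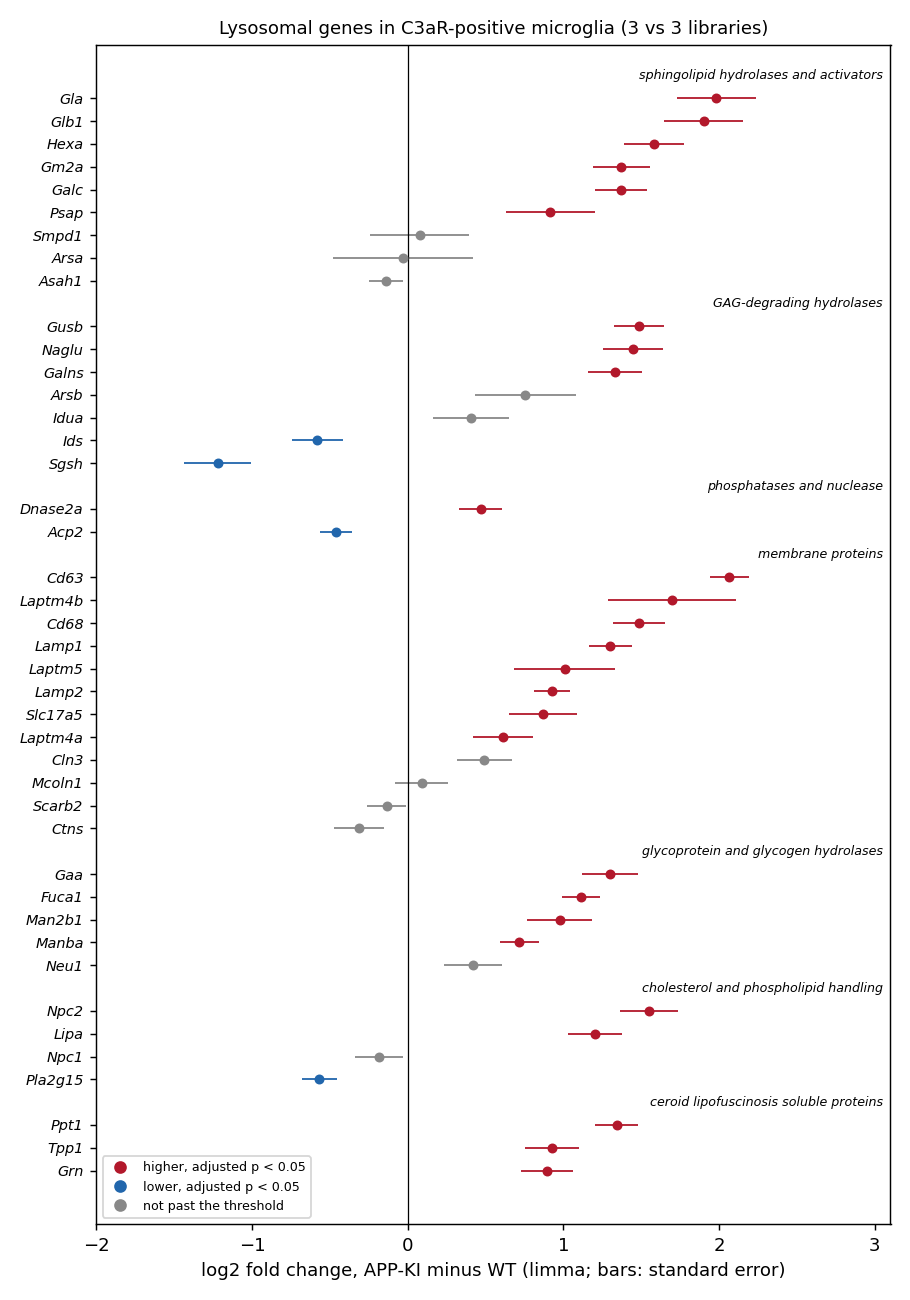
Log2 fold change of the 42 tested lysosomal genes between 3 APP-KI and 3 WT C3aR+ libraries, grouped by role, with standard errors from limma as bars. Red marks the 27 genes that were higher and blue the 4 that were lower at an adjusted p-value under 0.05, and the changes run from -1.22 (Sgsh) to 2.07 (Cd63).

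Membrane proteins held the gene with the largest rise. Of 12, 8 were higher and none was lower, and their log2 fold changes had a median of 0.90. Cd63, a tetraspanin of late endosomes, lysosomes and secreted vesicles (ENSMUSG00000025351, chr10:128900989-128912822 in mm10), was at 55.7, 57.9 and 54.1 in WT and 242, 210.2 and 262 in APP-KI. All 3 APP-KI values lay far above the WT values, which were within a few units of each other, and the difference was 4.19-fold (log2 fold change 2.07 ± 0.12 (SE), adjusted p = 1.61e-05). Laptm4b, a transmembrane protein of late endosomes, was at 9.90, 8.20 and 8.76 in WT and 27.0, 17.8 and 62.3 in APP-KI. The groups did not overlap, although 1 APP-KI library stood apart from the other 2 (log2 fold change 1.70 ± 0.41 (SE), adjusted p = 0.016), and the call was lost without WT C3aR+ replicate 2. Cd68, the heavily glycosylated membrane protein named above, was at 419, 435 and 459 in WT and 1110.2, 1028 and 1610.3 in APP-KI, a 2.8-fold difference with no overlap (log2 fold change 1.48 ± 0.17 (SE), adjusted p = 0.000343). Lamp1 and Lamp2 code for the most abundant glycoproteins of the lysosomal membrane. Lamp1 was at 611, 618 and 486 in WT and 1425, 1307 and 1483 in APP-KI, and Lamp2 at 328, 287 and 278 in WT and 528, 577 and 591 in APP-KI. Both rose without overlap, Lamp1 by 2.47-fold (log2 fold change 1.30 ± 0.14 (SE), adjusted p = 0.000241) and Lamp2 by 1.9-fold (log2 fold change 0.93 ± 0.11 (SE), adjusted p = 0.000541). The sialic acid exporter Slc17a5 (0.87), Laptm5 (1.01) and Laptm4a (0.61) also passed, the latter pair with adjusted p-values of 0.0497 and 0.0458, and each lost its call without some single library (Slc17a5 when WT replicate 1 or 3 or APP-KI replicate 2 was left out, Laptm5 when any WT replicate or replicate 2 or 3 of APP-KI was, and Laptm4a when replicate 2 or 3 of WT or replicate 1 or 2 of APP-KI was). Cln3 (0.49 ± 0.18), the calcium channel Mcoln1 (0.09 ± 0.17), the glucocerebrosidase receptor Scarb2 (-0.14 ± 0.13) and the cystine exporter Ctns (-0.31 ± 0.16) did not pass the test.

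Sphingolipid hydrolases and their activators showed the highest median of the larger groups, 1.37, with 6 of 9 higher and none lower. Gla, α-galactosidase A, which removes the terminal galactose of globosides, was at 14.4, 9.86 and 9.50 in WT and 52.2, 37.2 and 52.2 in APP-KI. The lowest APP-KI value was above the highest WT value, and the difference was 3.95-fold (log2 fold change 1.98 ± 0.25 (SE), adjusted p = 0.000657). Glb1, the β-galactosidase that starts the breakdown of GM1 ganglioside, was at 38.9, 45.6 and 36.6 in WT and 105, 144 and 236 in APP-KI. It rose 3.74-fold (log2 fold change 1.90 ± 0.25 (SE), adjusted p = 0.000827), with the 3 APP-KI libraries spread widely above WT. Hexa, the α subunit of β-hexosaminidase, was at 492, 577 and 541 in WT and 1387, 1343 and 2224 in APP-KI, and Gm2a, the activator that presents ganglioside to that enzyme, was at 141, 144 and 122 in WT and 303, 296 and 485 in APP-KI. Hexa rose 3-fold (log2 fold change 1.58 ± 0.19 (SE), adjusted p = 0.000505) and Gm2a 2.59-fold (log2 fold change 1.37 ± 0.18 (SE), adjusted p = 0.000855). Galc, which cleaves galactosylceramide of myelin, rose as well (log2 fold change 1.37 ± 0.17 (SE), adjusted p = 0.000509). Psap, the precursor of the saposin activators, was at 1806, 2749.8 and 1768 in WT and 2979.8, 3312 and 5980.1 in APP-KI. Its APP-KI values were all above the WT values but spread from 2980 to 5980, and its call (log2 fold change 0.92 ± 0.28 (SE), adjusted p = 0.044) was lost when replicate 1 or 3 of WT or replicate 2 or 3 of APP-KI was left out. Arsa (-0.03 ± 0.45), the acid ceramidase Asah1 (-0.14 ± 0.11) and the acid sphingomyelinase Smpd1 (0.08 ± 0.32) did not pass.

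Enzymes of glycosaminoglycan breakdown were split, with 3 of 7 higher and 2 lower. Gusb, β-glucuronidase, was at 224, 252 and 233 in WT and 538, 643 and 840.4 in APP-KI. Naglu, which removes N-acetylglucosamine from heparan sulfate, was at 112, 106 and 100.3 in WT and 230.4, 261 and 409 in APP-KI. Galns, a sulfatase of keratan and chondroitin sulfate, was at 24.9, 25.9 and 25.1 in WT and 60.4, 58.5 and 77.7 in APP-KI. In all 3 genes the groups were well apart, and they rose 2.8-fold (log2 fold change 1.49 ± 0.16 (SE), adjusted p = 0.000264), 2.73-fold (log2 fold change 1.45 ± 0.19 (SE), adjusted p = 0.000793) and 2.51-fold (log2 fold change 1.33 ± 0.17 (SE), adjusted p = 0.000707) in that order. Sgsh, the sulfamidase that acts on the same heparan sulfate chains as Naglu, went the other way. It was at 74.7, 88.2 and 68.2 in WT and 42.7, 33.0 and 23.9 in APP-KI, with each APP-KI library below every WT library (log2 fold change -1.22 ± 0.22 (SE), adjusted p = 0.00353). Ids, iduronate sulfatase, was also lower (log2 fold change -0.58 ± 0.17 (SE), adjusted p = 0.033), and lost its call under 11 of 15 alternative settings, among them leaving out replicate 1 or 2 of either group. Arsb (0.75 ± 0.32) and Idua (0.41 ± 0.25) did not pass.

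Glycoprotein and glycogen hydrolases were higher in 4 of 5 cases. Gaa, the acid α-glucosidase that degrades glycogen, was at 150.1, 185 and 160.3 in WT and 332, 370.4 and 544 in APP-KI (log2 fold change 1.30 ± 0.18 (SE), adjusted p = 0.000968). Fuca1, the lysosomal fucosidase, was at 87.4, 98.0 and 90.1 in WT and 186, 187 and 227 in APP-KI (log2 fold change 1.11 ± 0.12 (SE), adjusted p = 0.000308). Man2b1, the major α-mannosidase, was at 1011, 1228 and 804 in WT and 1584, 1885 and 2540.0 in APP-KI (log2 fold change 0.97 ± 0.21 (SE), adjusted p = 0.00947). Manba, the β-mannosidase that removes the last mannose of N-glycans, was at 71.7, 64.5 and 66.7 in WT and 101, 114 and 121 in APP-KI (log2 fold change 0.72 ± 0.13 (SE), adjusted p = 0.00349). The groups did not overlap for any of these 4 genes, and the sialidase Neu1 did not pass (0.42 ± 0.19).

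Of the proteins that handle cholesterol and phospholipids, Npc2 and Lipa rose and Pla2g15 fell. Npc2, the soluble carrier that hands cholesterol to NPC1, was at 214, 236 and 224 in WT and 586, 533 and 922 in APP-KI. It rose 2.93-fold (log2 fold change 1.55 ± 0.19 (SE), adjusted p = 0.000481), whereas its membrane partner Npc1 did not pass (-0.18 ± 0.15, adjusted p = 0.411). Lipa, the acid lipase that frees cholesterol from its esters, was at 82.9, 86.6 and 79.2 in WT and 168, 164 and 257 in APP-KI (log2 fold change 1.20 ± 0.17 (SE), adjusted p = 0.00117). Pla2g15, the lysosomal phospholipase, was at 402, 431 and 435 in WT and 307, 257 and 292 in APP-KI, with the groups apart in the opposite direction (log2 fold change -0.57 ± 0.11 (SE), adjusted p = 0.00604).

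All 3 soluble proteins whose loss causes neuronal ceroid lipofuscinosis were higher. Ppt1, a thioesterase that removes palmitate from proteins, was at 159.7, 182 and 182 in WT and 436, 378 and 529 in APP-KI (log2 fold change 1.34 ± 0.14 (SE), adjusted p = 0.000228). Tpp1, a peptidase, was at 221, 251 and 241 in WT and 371, 408 and 607 in APP-KI (log2 fold change 0.92 ± 0.17 (SE), adjusted p = 0.00494). Grn, progranulin, was at 1412, 1616 and 1378 in WT and 2298, 2734 and 3214 in APP-KI (log2 fold change 0.89 ± 0.17 (SE), adjusted p = 0.00495). The groups were apart for each of them. The remaining pair moved in opposite directions. Dnase2a, the acid nuclease, was at 103, 131 and 126 in WT and 179, 146 and 174 in APP-KI (log2 fold change 0.47 ± 0.14 (SE), adjusted p = 0.035), and its call was lost without any 1 of 5 of the 6 libraries (all but APP-KI replicate 2). Acp2, the lysosomal acid phosphatase, was at 260.1, 277 and 247 in WT and 193, 186 and 188 in APP-KI, with the 3 APP-KI values close together and below all WT values (log2 fold change -0.46 ± 0.10 (SE), adjusted p = 0.0112), and its call was lost without WT replicate 2, under median ratio scaling, without a trend in limma and in edgeR.

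Groups did not overlap in 31 of the 42 genes, 27 of them higher and 4 lower in APP-KI, where 17.8% of all genes tested were higher and 25.7% lower without overlap. Of the 9 genes with CACGTG in a promoter window, 5 rose and 1 fell (median log2 fold change 1.30). Of the 29 tested genes whose windows lacked it, 20 rose and 3 fell (median 0.92). Both kinds of promoter thus belonged mostly to genes that rose. Of the genes printed above, Lamp1, Glb1, Naglu, Gaa and Gla rose, Sgsh fell, and Mcoln1, Cln3 and Arsa did not pass.

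Some other cell markers differed between the C3aR+ groups. The summed level of the 6 border macrophage markers was 375 to 569.9 in WT and 134 to 312 in APP-KI, each of the 6 being detected in all 6 libraries. The summed level of the 6 endothelial markers was 50.7 to 108 in WT and 191 to 348 in APP-KI, of which Flt1 made up 155 to 314 in APP-KI. Pecam1 went the other way, at 21.4 to 42.2 in WT and 4.08 to 8.37 in APP-KI, and the tight junction gene Cldn5 was at 0.0786 to 0.569 in APP-KI. The summed oligodendrocyte markers were 86.7 to 114 in WT and 156 to 169 in APP-KI, with Mbp at 46.6 to 76.1 and 105 to 135. The summed astrocyte markers were lower in APP-KI (299 to 395 in WT and 222 to 266 in APP-KI), while Gfap was at 0.107 to 1.17 in WT and 5.38 to 14.2 in APP-KI. Among the microglia markers, P2ry12 and Tmem119 were lower in APP-KI (log2 fold change -1.04 and -1.45, adjusted p = 0.00102 and 6.39e-05). The part of these differences in the lysosomal results was not tested. Summed dissociation genes, which rise when cells are warmed during isolation, overlapped between the groups (3742 to 5424 in WT and 3199 to 4310.0 in APP-KI). Not every gene of the sum did. Atf3 was at 113 to 213 in WT and 472 to 597 in APP-KI. Jun (1104 to 1706 and 691 to 807), Hspa1a (173 to 297 and 73.1 to 155) and Hspa1b (318 to 576 and 142 to 258) were lower in APP-KI without overlap. The part of these genes in the lysosomal results was not tested either. A higher level per library cannot be told apart from more RNA per cell or more cells of a type that holds the gene.

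Exons of 15 members share bases with another annotated gene in GENCODE M21, in 14 of them only with a gene on the opposite strand. The largest shares among the genes named are 32.3% of Arsb with Gm26527, 30% of Dnase2a with Mast1 and 21.6% of Sgsh with Card14. Next are 18.75% of Arsa with C230037L18Rik, 12.8% of Hexa with Tmem202 and 12.6% of Acp2 with Ddb2. Whether the counting used strand is not stated, so reads of such partners cannot be told apart.

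Other genes of the lysosome, listed by function and not members, were counted in the C3aR+ libraries in the same way, where 13% of all genes were higher and 9.7% lower. Of 26 other hydrolases, 25 were tested, and 12 were higher and 2 lower (median 0.58). The largest changes were those of Smpdl3a (2.02), Dpp7 (1.82), Plbd2 (1.39) and Hyal2 (-1.76). Of 24 other membrane proteins, 23 were tested, and 8 were higher and 4 lower (median 0.01), with Mcoln3 at 3.04, Glmp at 1.42, Mfsd12 at 1.31 and Cd164 at -1.04. Of 15 genes that mark or sort lysosomal enzymes on their way from the Golgi, 6 were higher and 1 lower (median 0.27), led by Gnptab (1.52), a subunit of the enzyme that attaches the mannose phosphate tag. Of the 4 MiT/TFE transcription factors, 3 passed the filter. Mitf was higher (0.85 ± 0.14, adjusted p = 0.00258), and Tfeb (-0.44 ± 0.16, adjusted p = 0.0686) and Tfe3 (-0.03 ± 0.18, adjusted p = 0.92) did not pass.

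The next set of comparisons concerned the 4 genotypes without selection on C3aR. The median log2 level over the 42 members is a summary of how these libraries lie. It was 7.30 to 7.50 in WT, and 6.79, 7.39 and 7.99 in APP-KI replicates 4, 5 and 6. In C3aRKO it was 6.99, 6.67 and 7.32, and in APP-KI;C3aRKO 6.58, 7.55, 8.03, 8.00 and 8.06. The 4 libraries with fewer than 14000 genes detected thus held the 4 lowest values of the 14. Of the remaining APP-KI and APP-KI;C3aRKO libraries, all but APP-KI replicate 5 were above every WT library.

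**Figure D2:**
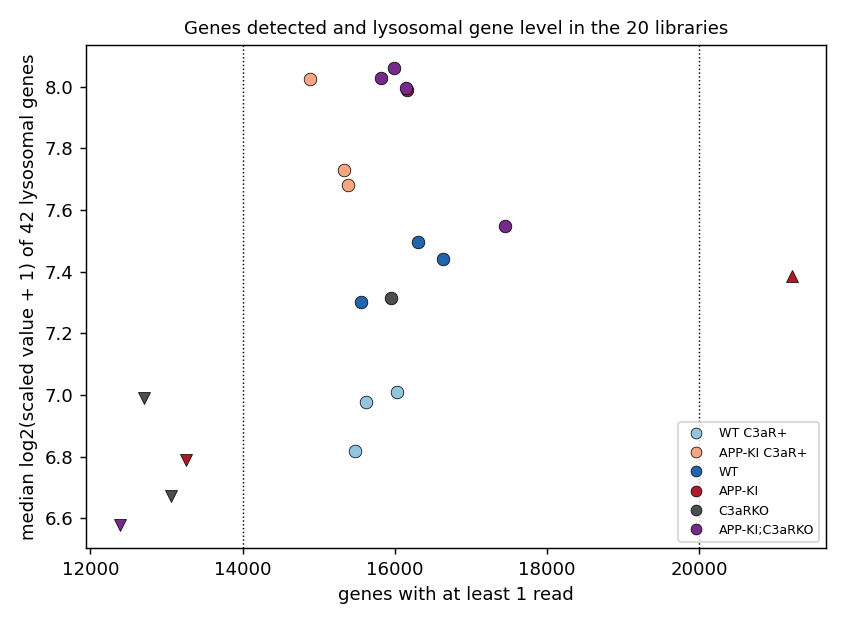
Genes with at least 1 read (x axis) against the median log2(scaled value + 1) of the 42 tested lysosomal genes (y axis) in each of the 20 libraries, colored by condition, with dotted lines at 14000 and 20000 genes. The 4 libraries left of the first line lie between 6.58 and 6.99, and the library right of the second, APP-KI replicate 5, is at 7.39.

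Membrane proteins in the 14 libraries are given in replicate order, 4 to 6 in WT and APP-KI, 1 to 3 in C3aRKO and 1 to 5 in APP-KI;C3aRKO. Cd63 was at 62.7, 73.7 and 75.9 in WT, 80.3, 153 and 297 in APP-KI, 42.1, 41.8 and 58.9 in C3aRKO and 93.9, 167, 292, 303 and 289 in APP-KI;C3aRKO. Every APP-KI and APP-KI;C3aRKO value was above every value of mice without the knockin, and the libraries with few genes were the lowest of their groups. Cd68 was at 565, 616 and 537 in WT, 403, 966 and 1254 in APP-KI, 587, 308 and 600.1 in C3aRKO and 340.1, 1249.9, 1426, 1239 and 1413 in APP-KI;C3aRKO. Lamp1 was at 860.4, 1038 and 960.1 in WT, 396, 1035 and 1398 in APP-KI, 617, 402 and 894 in C3aRKO and 453, 1068, 1540.1, 1429 and 1679 in APP-KI;C3aRKO. The libraries with few genes fell below every WT library in Lamp1 whatever their genotype, and in Cd68 all but C3aRKO replicate 1 did. In both genes the 4 other APP-KI;C3aRKO libraries were above all WT libraries. Lamp2 was at 379.7, 460.3 and 431 in WT, 284, 435 and 568 in APP-KI, 258, 201 and 394 in C3aRKO and 309.7, 448, 593, 584 and 674 in APP-KI;C3aRKO. Laptm4b was at 18.1, 24.0 and 22.9 in WT, 1.62, 26.7 and 32.4 in APP-KI, 4.69, 10.9 and 23.3 in C3aRKO and 6.72, 27.1, 33.1, 32.8 and 35.8 in APP-KI;C3aRKO, with its lowest value of all in APP-KI replicate 4.

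Among the sphingolipid hydrolases, Gla was laid out differently from the others. It was at 9.40, 11.7 and 11.5 in WT, 77.2, 27.5 and 33.3 in APP-KI, 21.2, 7.36 and 9.02 in C3aRKO and 51.7, 27.0, 34.3, 38.4 and 30.5 in APP-KI;C3aRKO. All 8 values of mice with the knockin exceeded all 6 of mice without it, and the libraries with few genes were here the highest of their groups, apart from C3aRKO replicate 2. Glb1 was at 52.1, 70.6 and 63.2 in WT, 49.3, 116 and 179.6 in APP-KI, 33.2, 28.2 and 69.0 in C3aRKO and 21.9, 109, 200.2, 165 and 211 in APP-KI;C3aRKO. Hexa was at 702, 878 and 833 in WT, 542, 1105 and 1781 in APP-KI, 574, 300.5 and 771 in C3aRKO and 473, 1163, 1980.0, 1852 and 1990.3 in APP-KI;C3aRKO. Gm2a was at 208, 270.2 and 259 in WT, 96.5, 268 and 360.5 in APP-KI, 144, 100.3 and 199.5 in C3aRKO and 87.1, 296, 363, 349 and 391 in APP-KI;C3aRKO. For these 3 genes APP-KI replicate 4 and APP-KI;C3aRKO replicate 1 were below every WT library, and APP-KI replicate 6 and APP-KI;C3aRKO replicates 3 to 5 were above every WT library.

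Among enzymes of glycosaminoglycan breakdown, Galns was at 19.0, 24.9 and 29.2 in WT, 52.4, 41.9 and 71.4 in APP-KI, 22.8, 29.2 and 24.4 in C3aRKO and 45.9, 47.2, 82.9, 68.3 and 61.7 in APP-KI;C3aRKO. All 8 knockin values were above all 6 others, those of the libraries with few genes included. Gusb was at 274, 317 and 314 in WT, 206, 395 and 811 in APP-KI, 272, 178 and 282 in C3aRKO and 313, 511, 928, 706 and 749 in APP-KI;C3aRKO, where all APP-KI;C3aRKO values were above all C3aRKO values. Naglu was at 161, 172 and 176 in WT, 79.8, 219.8 and 307 in APP-KI, 115, 109 and 152 in C3aRKO and 56.4, 225, 344, 328 and 329 in APP-KI;C3aRKO. Sgsh was at 26.2, 80.6 and 39.7 in WT, 34.6, 50.2 and 56.1 in APP-KI, 69.9, 79.1 and 30.7 in C3aRKO and 56.5, 99.2, 9.47, 54.8 and 114 in APP-KI;C3aRKO. Its values within APP-KI;C3aRKO ran from 9.47 to 114, and the 4 genotypes overlapped.

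Of the glycoprotein and glycogen hydrolases, Gaa was at 205, 254 and 252 in WT, 152, 299.6 and 437 in APP-KI, 161, 169.5 and 262 in C3aRKO and 94.4, 314, 478, 399 and 500.3 in APP-KI;C3aRKO. Fuca1 was at 119, 127 and 127 in WT, 86.0, 153 and 216 in APP-KI, 119.8, 54.1 and 113 in C3aRKO and 96.1, 152, 231, 213 and 213 in APP-KI;C3aRKO. In both genes every knockin library except the 2 with few genes was above every library without the knockin. Man2b1 was at 1353, 1443 and 1449 in WT, 857, 1499 and 2036 in APP-KI, 1204, 841 and 1320.1 in C3aRKO and 635, 1575, 2229, 2014 and 2337 in APP-KI;C3aRKO. Manba was at 83.0, 80.4 and 81.4 in WT, 103, 88.0 and 104 in APP-KI, 66.4, 44.4 and 84.2 in C3aRKO and 84.9, 92.7, 109, 101 and 125 in APP-KI;C3aRKO, with all 8 knockin values above all 6 others.

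In the cholesterol and phospholipid group, Npc2 was at 316, 372 and 343 in WT, 299, 473 and 736 in APP-KI, 276, 100.4 and 307 in C3aRKO and 174, 492, 752, 744 and 785 in APP-KI;C3aRKO. Lipa was at 106, 140.3 and 133 in WT, 77.8, 136 and 192 in APP-KI, 89.6, 53.8 and 122 in C3aRKO and 69.9, 134, 209, 209 and 245 in APP-KI;C3aRKO. Both were highest in APP-KI replicate 6 and APP-KI;C3aRKO replicates 3 to 5. Pla2g15 was at 487, 492 and 476 in WT, 158, 304 and 367 in APP-KI, 397, 241 and 448 in C3aRKO and 195, 309, 397, 372 and 449 in APP-KI;C3aRKO, and all APP-KI values were below all WT values.

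Of the ceroid lipofuscinosis proteins, Ppt1 was at 264, 307 and 284 in WT, 156, 321 and 435 in APP-KI, 265, 122 and 281 in C3aRKO and 94.6, 329, 464, 455 and 532 in APP-KI;C3aRKO. Tpp1 was at 342, 375 and 352 in WT, 166, 338 and 422 in APP-KI, 289, 181 and 413 in C3aRKO and 194, 358, 471, 422 and 470.5 in APP-KI;C3aRKO. Grn was at 1809, 2101 and 1999.7 in WT, 1324, 1856 and 2741 in APP-KI, 1897, 1403 and 1965 in C3aRKO and 1050.2, 1998, 3134, 2745 and 3168 in APP-KI;C3aRKO. The spread within APP-KI covered the WT values in all 3 genes. Dnase2a was at 126, 149.6 and 153 in WT, 110.3, 134 and 171 in APP-KI, 133, 96.3 and 133 in C3aRKO and 110.1, 145, 179, 178 and 185 in APP-KI;C3aRKO. Acp2 was at 306, 309 and 309 in WT, 153, 180.2 and 188 in APP-KI, 295, 203 and 277 in C3aRKO and 147, 207, 199, 190.2 and 233 in APP-KI;C3aRKO, and the 3 WT values, within 3 units of each other, lay above all APP-KI and APP-KI;C3aRKO values.

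**Figure D3:**
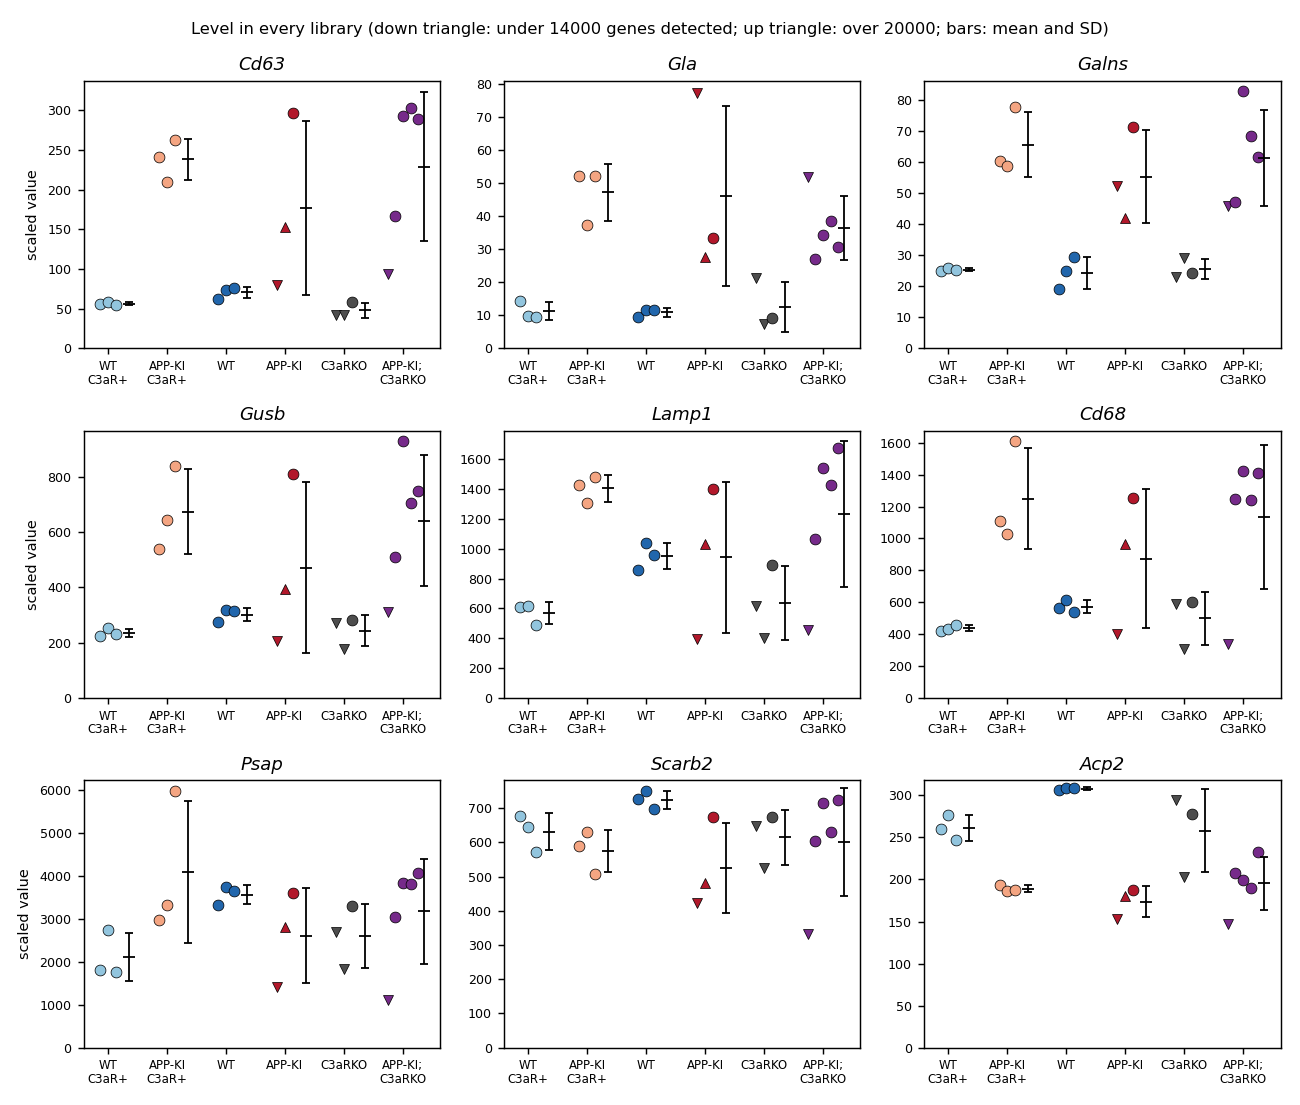
Scaled value of 9 lysosomal genes (y axis, from 0) in every library of the 6 conditions (x axis), with the mean and SD of each condition as bars. Down triangles mark the 4 libraries with fewer than 14000 genes detected and up triangles the library with more than 20000, and Cd63 is at 54.1 to 57.9 in C3aR+ WT and 210.2 to 262 in C3aR+ APP-KI.

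The effect of APP-KI with C3ar1 intact was tested in a fit of all 14 libraries with the library series as a term. Over all 42 tested members, 3 were higher and 1 was lower, where 2.22% of all 12410 genes were higher and 1.93% lower (4.14% in either direction), and the median log2 fold change was 0.13. Galns (log2 fold change 1.28 ± 0.22 (SE), adjusted p = 0.003), Gla (log2 fold change 1.78 ± 0.42 (SE), adjusted p = 0.0264) and Cd63 (log2 fold change 1.42 ± 0.29 (SE), adjusted p = 0.011) rose, and Acp2 fell (log2 fold change -0.77 ± 0.17 (SE), adjusted p = 0.0187). The call of Cd63 was lost when WT replicate 5 or APP-KI replicate 6 was left out, with no series term and with only the 2 groups compared in the fit (which also ended that of Gla), and those of Gla and Acp2 without any 1 of 5 of the 6 libraries compared (all but APP-KI replicate 5). Galns kept it in every alternative but the stricter threshold of 0.0005.

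Without the 4 libraries with few genes the same comparison, now 2 APP-KI against 3 WT libraries, had 18 members higher and 3 lower of 43. Among all genes 13.2% were higher and 14.7% lower (27.9% in either direction), and the median of the members was 0.25. This selection was made after the data were seen. The largest rises were those of Cd63 (log2 fold change 1.69 ± 0.14 (SE), adjusted p = 5.31e-05), Gla (log2 fold change 1.45 ± 0.10 (SE), adjusted p = 1.96e-05), Glb1 (log2 fold change 1.31 ± 0.13 (SE), adjusted p = 0.000156), Galns (log2 fold change 1.25 ± 0.13 (SE), adjusted p = 0.000173) and Gusb (log2 fold change 1.01 ± 0.18 (SE), adjusted p = 0.003). Pla2g15 (-0.50), Acp2 (-0.74) and Ctns (-0.46) were lower. Without APP-KI replicate 5 as well, which leaves 1 APP-KI library that is assumed to vary like the other groups, 14 of 42 were higher and 1 was lower (7.88% and 7.81% of all genes), with a median of 0.31. Within the library series, the median difference was -0.25 in the series with 2 APP-KI and 1 WT library and 0.28 in the series with 1 and 2, so the pooled median joined opposite signs. Both APP-KI libraries of the first series, replicates 4 and 5, are among those set apart for their number of genes. Series and number of genes cannot be told apart here. Galns was at 1.26 and 1.37, Gla at 2.18 and 1.44, Cd63 at 0.81 and 1.98, and Acp2 at -0.88 and -0.71 in the 2 series, each with 1 sign.

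The effect of APP-KI in mice without C3ar1 rests on other libraries, 5 of APP-KI;C3aRKO and 3 of C3aRKO. Of the 42 members, 6 were higher and none was lower, where 3.96% of all genes were higher and 2.97% lower (6.93% in either direction), and the median was 0.34. Cd63 (log2 fold change 1.89 ± 0.26 (SE), adjusted p = 0.000346), Gla (log2 fold change 1.62 ± 0.38 (SE), adjusted p = 0.0166), Gusb (log2 fold change 1.11 ± 0.27 (SE), adjusted p = 0.0234), Galns (log2 fold change 1.09 ± 0.19 (SE), adjusted p = 0.00275), Lamp2 (log2 fold change 0.71 ± 0.18 (SE), adjusted p = 0.0255) and Manba (log2 fold change 0.61 ± 0.17 (SE), adjusted p = 0.0389) rose. Cd63 kept its call in all 27 alternatives. The other 5 lost it in the fit with the replicate number and at the stricter threshold, and Gla also without C3aRKO replicate 2 or 3. Without a series term Gusb and Lamp2 lost it, and with only the 2 groups compared Lamp2 and Manba did. Gusb lost it without C3aRKO replicate 2 or 3 or APP-KI;C3aRKO replicate 2 or 3, Lamp2 without these or APP-KI;C3aRKO replicate 5, and Manba without C3aRKO replicate 2, any of APP-KI;C3aRKO replicates 2 to 5, any WT replicate or APP-KI replicate 6. Leaving out 1 library, the number called ran from 3 to 16, the latter without APP-KI;C3aRKO replicate 1. In that fit 759 of all 12436 genes were higher and 638 lower, against 491 and 369 of 12410 with all libraries. Without the 4 libraries with few genes 22 were higher and 1, Acp2, was lower (13.2% and 18.2% of all genes, 31.3% in either direction), and the median was 0.52, with Cd63 at 2.26 ± 0.17, Gla at 1.81 ± 0.12, Galns at 1.50 ± 0.16, Gusb at 1.47 ± 0.22 and Glb1 at 1.41 ± 0.16. Without APP-KI replicate 5 as well, 22 were higher and 1 was lower (14.3% and 20% of all genes, 34.3% in either direction). These fits hold 1 C3aRKO library, which is assumed to vary like the other groups. Within the library series the median was 0.19 (2 against 2 libraries) and 0.48 (3 against 1), and Cd63 was at 1.56 and 2.30.

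The libraries behind these 3 APP-KI comparisons are all different, so the called genes can be set side by side, although the latter pair share 1 fit and its estimate of the spread. The 3 genes that rose in all sorted microglia and the 6 that rose without C3ar1 were all among the 27 that rose in C3aR+ microglia. Since 27 of the 42 tested members rose there, much overlap is expected by number alone. The overlap of calls over all genes was not counted, here or in the counts that follow, so it is not known whether it is particular to the members. Without the libraries with few genes, the 18 that rose in all sorted microglia made up 18 of 18 of that list and 18 of the 27, and the 22 that rose without C3ar1 made up 22 of 22 and 22 of the 27. Acp2 was the 1 member lower in all 3 comparisons under that selection, and Sgsh, lower in C3aR+ microglia, was at 0.25 ± 0.92 in all sorted microglia and 0.66 ± 1.14 without C3ar1. Psap, Laptm5, Tpp1, Laptm4a and Manba, which rose in C3aR+ microglia, did not pass in either of the others under that selection, with Psap at -0.11 ± 0.11 and 0.22 ± 0.13.

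**Figure D4:**
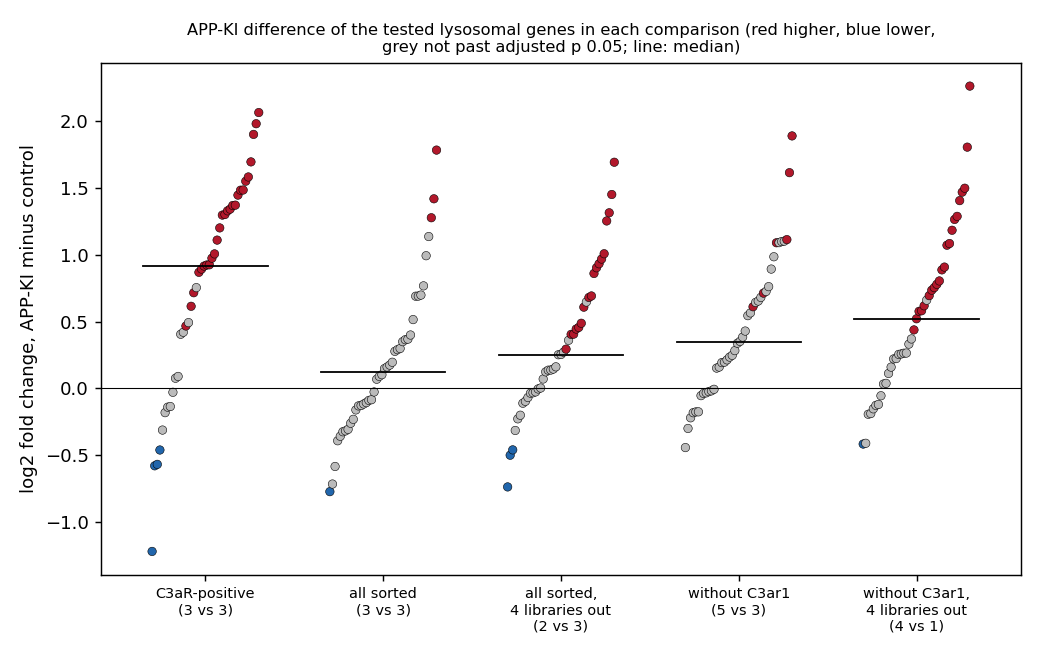
Log2 fold change of each tested lysosomal gene with APP-KI (y axis) in C3aR+ microglia, in all sorted microglia and in microglia without C3ar1, the latter pair with and without the 4 libraries with fewer than 14000 genes detected (x axis, ordered within each column). Lines mark the medians, which are 0.92, 0.13, 0.25, 0.34 and 0.52 from left to right, and red and blue mark genes higher and lower at an adjusted p-value under 0.05.

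Levels of some other cell markers differed with the knockin in these libraries. The summed endothelial markers were 65.2 to 76.7 in WT and 44.7 to 89.1 in C3aRKO, and 210.5 to 281 in APP-KI and 111 to 287 in APP-KI;C3aRKO. Of these Flt1 was at 9.92 to 11.95 in WT, 6.98 to 14.9 in C3aRKO, 167 to 243 in APP-KI and 78.4 to 249.8 in APP-KI;C3aRKO. Pecam1 went the other way, at 30.0 to 37.1 in WT and 24.2 to 39.7 in C3aRKO, and 6.94 to 20.5 in APP-KI and 0.294 to 17.7 in APP-KI;C3aRKO, and Kdr overlapped between the groups. The summed border macrophage markers were 357 to 960.2 in WT and 288 to 471 in C3aRKO, and 207 to 233 in APP-KI and 126 to 282 in APP-KI;C3aRKO. Their part in the lysosomal results was not tested.

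Other lysosomal genes were counted in the same fits. With C3ar1 intact, where 2.22% of all genes were higher and 1.93% lower, 2 of 25 other hydrolases (Dpp7 at 1.46 and Ggh at 1.00), 2 of 23 other membrane proteins (Mcoln3 at 3.20 and Mfsd12 at 1.09) and 1 of 15 sorting genes (Gnptab at 1.35) rose, and the membrane protein Cd164 fell (-1.22). Without C3ar1, where 3.96% of all genes were higher and 2.97% lower, Dpp7 (1.37), Mcoln3 (2.13), Mfsd12 (1.19), Slc11a1 (0.85), Gnptab (1.55) and Vps29 (0.81) rose and Slc36a1 fell (-0.66). None of the 3 tested MiT/TFE factors passed in either fit. Without the libraries with few genes, 9 hydrolases, 9 membrane proteins and 5 sorting genes were higher with C3ar1 intact, and 4, 5 and 1 were lower (13.2% and 14.7% of all genes). Without C3ar1 the counts were 11, 9 and 7 higher and 1, 6 and 1 lower (13.2% and 18.2% of all genes). Under that selection Mitf was higher with C3ar1 intact (0.46 ± 0.15, adjusted p = 0.0454), and Tfeb (-0.34 ± 0.08, adjusted p = 0.0101) and Tfe3 (-0.53 ± 0.08, adjusted p = 0.00132) were lower.

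Loss of C3ar1 was tested on both backgrounds. In C3aRKO against WT, 0 of 42 members passed by limma, edgeR or DESeq2, and 0 had an unadjusted p-value under 0.05 by limma. Of all genes, limma called 0.00806%, the only one being C3ar1, and DESeq2 called 1 higher and 8 lower. The median was -0.15, against -0.03 for all genes, and 36 of 42 differences were below 0. Groups did not overlap for 13 members, all lower in C3aRKO, where 9.31% of all genes were lower and 9.16% higher in this way. Of the 3 C3aRKO libraries, 2 are among those with few genes. Without the libraries with few genes the median was -0.16, 0 passed (0.00796% of all genes in each direction) and 5 had an unadjusted p-value under 0.05, as 1828 of all 12566 genes did. Without APP-KI replicate 5 as well, 0 passed (0.00824% of all genes). Within the library series the median was -0.52 (2 against 1 library) and -0.11 (1 against 2).

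In APP-KI;C3aRKO against APP-KI, 0 of 42 members passed by limma, edgeR or DESeq2, and 0 had an unadjusted p-value under 0.05 by limma (0.00806% of all genes were called, again C3ar1 alone). The median was 0.08 and 28 of 42 differences were above 0. For the genes that rose with APP-KI, the differences were 0.20 ± 0.26 for Cd63, -0.17 ± 0.38 for Gla, 0.03 ± 0.19 for Galns, 0.36 ± 0.27 for Gusb, 0.17 ± 0.39 for Cd68 and 0.20 ± 0.32 for Lamp1. With standard errors between 0.19 and 0.39 these values leave room for changes in either direction. Without the libraries with few genes the median was 0.11, with Cd63 at 0.10 ± 0.13, Gla at 0.01 ± 0.09, Cd68 at 0.23 ± 0.11 and Lamp1 at 0.13 ± 0.10, 0 passed (0.00796% of all genes) and 1 had an unadjusted p-value under 0.05, as 394 of all 12566 genes did. Without APP-KI replicate 5 as well the median was 0.07 and 0 passed (0.00824%). Within the library series the median was -0.03 (2 against 2) and 0.09 (3 against 1). No member had groups without overlap, against 1.61% of all genes. Whether the loss of C3ar1 acted differently with and without the knockin was tested as an interaction. Among all genes, limma and edgeR called 0% and DESeq2 called 1 gene higher. Of the 42 members, 0 passed by limma, edgeR or DESeq2 and 0 had an unadjusted p-value under 0.05 by limma, with a median of 0.28. Without the libraries with few genes 10 had an unadjusted p-value under 0.05, as 1774 of all 12566 genes did, with a median of 0.30, and 0 passed.

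The C3aR+ libraries and the unselected libraries of the same genotype differ in selection, in reporter line, in depth and in library series, which cannot be told apart, so their levels are given side by side with no test. In WT, 38 of 42 members were lower in C3aR+ than in unselected microglia, with a median log2 difference of -0.37 against -0.02 over all genes. Lamp1 was at 611, 618 and 486 in C3aR+ and 860.4, 1038 and 960.1 in unselected WT microglia, a difference of -0.74, and Laptm4b differed by -1.18 and Psap by -0.79, with no overlap for any of the 3 genes. Gla differed by 0.03. In APP-KI, 37 of 43 were higher in C3aR+ microglia, with a median of 0.45, which was 0.16 without APP-KI replicate 4. Lamp1 was at 1425, 1307 and 1483 in C3aR+ and 396, 1035 and 1398 in unselected APP-KI microglia. The C3aR+ APP-KI values of Lamp1, Cd63 and Gusb lay in the range of APP-KI replicate 6 and of APP-KI;C3aRKO replicates 3 to 5 or somewhat below it, while the C3aR+ WT values lay below those of unselected WT. A test of whether the effect of APP-KI differed between C3aR+ and unselected microglia called 0 of 42 members by limma, edgeR or DESeq2. Of all 12592 genes, limma and edgeR called 0%, and DESeq2 called 87 higher and 33 lower. By limma, 27 members had an unadjusted p-value under 0.05, 26 of them with a larger effect in C3aR+ microglia, against 1480 of all genes. The median difference of effects was 0.95 with all 12 libraries, 0.57 without APP-KI replicate 4 and 0.39 without APP-KI replicate 5 as well, where 7 had an unadjusted p-value under 0.05, as 535 of all 12234 genes did.

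Levels were compared between genes per kilobase of annotated exon, a length that pools all isoforms. In unselected WT microglia Psap was the highest at 1299.6 ± 81.8 (SD, n = 3) per kilobase, followed by Laptm5 at 753 ± 55.0, Grn at 567 ± 42.7, Cd68 at 456 ± 31.6, Hexa at 403 ± 45.8 and Lamp1 at 356 ± 33.3. Hexa and its neighbors Cd68 and Lamp1 did not differ by more than the sum of their SDs. At the other end stood Gla at 3.33 ± 0.39, Galc at 4.31 ± 0.62, Slc17a5 at 8.06 ± 0.19 and Galns at 9.20 ± 1.94, and Acp5 was lowest at 0.256 ± 0.115. Gla and Galns, which rose in each of the 3 APP-KI comparisons, belonged to the 5 members of lowest level. Cd63, which rose in all 3 too, ranked 28 of 43 at 19.2 ± 1.92. Psap and Laptm5, the 2 of highest level, passed the test in C3aR+ microglia and in neither of the others, with adjusted p-values of 0.044 and 0.0497.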

How the data were processed

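Microglial RNA was measured by RNA-seq in 20 libraries. The authors aligned reads to mm10 with TopHat v2.0.9 after cutadapt trimming and counted genes with featureCounts, and the submitters' processing notes also name DESeq2. The library kit carries molecular identifiers, and whether they were used in counting, and whether counting used strand, is not given in the sources used here. The values are named FPKM, but the deposited signal of each gene is its read number divided by the library's 75th percentile of counts, with no length, and 100% of values came out as whole reads (tolerance 0.1 read). Since the unit was not FPKM as the design had assumed, the log-scale test was kept on values multiplied by 1 constant (35.2), so that the median library sums to 1000000. A read was worth 0.0132 to 0.0786 on that scale, and precision below a few reads is limited by counting error.

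Genes whose scaled values averaged 1 or more were tested with limma 3.58.1 (trend) in R 4.3.3 on log2(value + 1), with Benjamini-Hochberg adjustment over all genes and a threshold of 0.05. The 6 C3aR+ libraries were fitted alone. The other 14 were fitted together with the library series, 24 or 26 as the library numbers begin, as a term. C3aR+ libraries are all of series 22, so the comparison of effects between selected and unselected microglia (12 libraries) had no such term. Alternatives were other scalings, filters and pseudocounts, edgeR 4.0.16 and DESeq2 1.42.0 on the recovered reads, other terms and leaving out libraries. In simulated data, 54% of genes with a log2 change of 1 and 100% with a change of 2 were found in the C3aR+ comparison. The changed genes excluded low ones, and every simulated gene had the same setting for the spread between libraries. These shares need not hold for the real genes. The members and the lists were chosen with earlier results of these data known. Genes given with values in every library were, in each role, up to 4 with the largest change in the C3aR+ comparison among those that passed there or for APP-KI in all sorted microglia, and any that passed in another comparison. Lists of other genes have up to 4 called genes named, and other genes named outside this rule were chosen after their values were seen. Exon lengths are unions of GENCODE M21 exons, and promoter windows are those of RefSeq. Figures were drawn with matplotlib 3.10.9.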

Additional observations from a re-analysis of the deposited data

Results flagged for a closer look

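Cd68 in APP-KI;C3aRKO replicate 1 lay far from the other 4 libraries of its group. Its scaled value was 340.1, and the nearest other library was at 1239. Of 25 members examined in this way in the group of 5 libraries, 1 was so placed, and chance alone marks about 1 in 20. The same library had the fewest genes detected, 12387.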

How the results depend on the processing

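No member that passed with the settings of the report changed sign under any alternative run. Of the 18 members that were higher for APP-KI in all sorted microglia without the libraries with few genes, Laptm4b was at -0.32 with all libraries, and it, Gm2a, Lamp1, Lamp2 and Ppt1 changed sign under some of 26 settings. In the C3aR+ comparison, the number of members called was 31 with the settings of the report and 24 to 33 under the other scalings, filters, tools and terms. It ran from 25 to 28 without 1 library and fell to 7 at a threshold of 0.0005, at which all genes were not counted. Median ratio scaling changed the split of all genes from 1602 higher and 1195 lower to 1845 and 605. Of all 12315 genes, limma without a trend called 1305 higher and 857 lower, and DESeq2 called 2225 and 948. For APP-KI in all sorted microglia, 4 members were called, against 2 without a trend, 0 at the threshold of 0.0005, 21 without the 4 libraries with few genes and 15 without APP-KI replicate 5 as well, and 1 to 5 without 1 library. For APP-KI without C3ar1, 6 were called, against 3 with no filter, 3 without a trend, 11 with DESeq2, 1 at the threshold of 0.0005, 23 without the 4 libraries with few genes and 23 without APP-KI replicate 5 as well, and 3 to 16 without 1 library. In that comparison, DESeq2 called 692 of all 12410 genes higher and 450 lower, and limma without a trend called 424 and 260. Leaving out libraries was chosen after seeing the data, and the cause of these changes was not tested.

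With the replicate number as a block, 28 members were called in the C3aR+ comparison (1387 of all 12315 genes higher and 853 lower), 4 for APP-KI in all sorted microglia, Cd63 not among them (371 and 303 of 12847), 1 for APP-KI without C3ar1 (121 and 30 of 12155) and 11 for APP-KI;C3aRKO against APP-KI, all higher and from 2 pairs (287 and 172 of 13278). It called 0 of all 12592 genes for the difference of APP-KI effects between C3aR+ and unselected microglia. The correlation of deviations between libraries of the same number was 0.02, 0.04 and -0.01 in the C3aR+ libraries and 0.25, 0.09 and 0.09 for WT and APP-KI. It was -0.29 and 0.01 for APP-KI and APP-KI;C3aRKO, and -0.00, 0.08 and 0.22 for C3aRKO and APP-KI;C3aRKO. Libraries of different numbers were at -0.22 to 0.20 for WT and APP-KI and at -0.30 to 0.45 for APP-KI and APP-KI;C3aRKO. These few values cannot decide whether libraries of the same number belong together. No paired analysis was possible for C3aRKO against WT or for the interaction of C3ar1 loss with APP-KI because those groups share too few numbers. The shallowest library holds 13939559 reads, and depth limits low genes such as Acp5.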
